A study of Mus musculus with 6 samples.

Results

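Red cell and platelet genes, 9 in all, were followed through the hearts of sham-operated and adrenalectomized mice. The 5 red cell genes were Hba-a1, Hbb-b1, Alas2, Slc4a1 and Epb4.2, the 4 platelet genes were Itga2b, Pf4, Ppbp and Gp9, and every noncontrol probe named for one of them was taken. All 9 were on the array, among 28786 gene names, with 14 of its 41174 noncontrol probes. The scanner files name 12 of these probes, of 7 genes, directly. They carry Pf4 and Ppbp under the older names Cxcl4 and Cxcl7, which were matched through their RefSeq accessions. Of the 14 probes, 12 probes of 8 genes passed the filter on dim signal (well above background in every heart of 1 group or of both) and were tested, and the 2 probes of Epb4.2 were not.

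The hearts came from male wild-type C57BL/6 mice, 3 biological replicates in each group, with 1 single-colour (Cy3) Agilent array of 60-base probes per heart. Adrenalectomy removes the glands that make corticosterone, aldosterone and adrenaline, so the groups differ in all of these together. The controls had a sham operation. Surgery was at 1 month of age and hearts were taken 6 months later, although another label calls the mice 6 months old. The labels name no allele, drug or hormone replacement in either group, and give no account of whether hearts were flushed of blood.

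Mature red cells have no nucleus but, as young reticulocytes, still hold RNA for globin and for the last steps of haemoglobin and membrane assembly. Platelets are shed by megakaryocytes and keep megakaryocyte RNA for their receptors and granule proteins. Neither is made in the adult heart, so RNA of these genes in a heart sample is often read as RNA of blood cells in its vessels. Which cells gave the RNA of each gene was not tested here. In whole-tissue RNA, more cells of a type and more RNA per cell cannot be told apart.

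The globin probes are shown first because their sequences bear on what each could measure. Hba-a1 and Hbb-b1 encode the adult alpha and beta chains of haemoglobin, and each belongs to a set of near-identical copies. The 2 Hba-a1 probes share a 30-base stretch, in capitals, that is 90.0% identical with 3 mismatches, and the first of them spans 182 bases of the genome for its 60 bases.
Hba-a1 A_52_P278538: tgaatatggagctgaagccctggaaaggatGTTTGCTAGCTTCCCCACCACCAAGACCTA
Hba-a1 A_52_P208681: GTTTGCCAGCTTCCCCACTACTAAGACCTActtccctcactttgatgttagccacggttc
The first lies at chr11:32235785-32235966 and the second at chr11:32235937-32235996, both on the plus strand of the mm7 assembly on which the array was designed.

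Of the 4 Hbb-b1 probes, 2 overlap by 29 identical bases, shown in capitals, and so read nearly the same stretch of the transcript. Another, A_51_P374468, lies towards the 5′ end of the gene and shares no stretch with them.
Hbb-b1 A_51_P374468: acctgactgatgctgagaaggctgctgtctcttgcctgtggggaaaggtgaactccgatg
Hbb-b1 A_52_P260346: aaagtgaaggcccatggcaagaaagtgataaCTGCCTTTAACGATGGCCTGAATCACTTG
Hbb-b1 A_51_P374476: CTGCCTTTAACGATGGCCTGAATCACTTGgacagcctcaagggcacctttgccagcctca
These lie on the minus strand of mm7 at chr7:99864621-99864680, chr7:99864335-99864394 and chr7:99864305-99864363. The fourth, A_52_P213909, lies at chr7:99863416-99863476. The accession of the Hbb-b1 probes now belongs to Hbb-bt in RefSeq, and Hba-a2, Hbb-bs, Hbb-bt and Hbb-b2 had no probe under their own name, so the signal of a globin probe was taken as that of its set of copies.

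Upstream sequence is shown for 3 members, 2 red cell genes and 1 platelet gene, that were highest in the same 2 hearts. The 250 bases before the gene start come from RefSeq on GRCm38.p6, with any GATA word in capitals. The word searched was GATA preceded by A or T and followed by A or G, on either strand. GATA factors are the master regulators of red cell and megakaryocyte genes.
Hba-a1: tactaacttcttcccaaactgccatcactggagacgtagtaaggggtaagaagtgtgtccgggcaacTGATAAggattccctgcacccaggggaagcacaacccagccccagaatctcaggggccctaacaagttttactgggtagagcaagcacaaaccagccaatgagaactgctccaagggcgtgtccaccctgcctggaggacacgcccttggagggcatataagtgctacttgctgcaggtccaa
Alas2: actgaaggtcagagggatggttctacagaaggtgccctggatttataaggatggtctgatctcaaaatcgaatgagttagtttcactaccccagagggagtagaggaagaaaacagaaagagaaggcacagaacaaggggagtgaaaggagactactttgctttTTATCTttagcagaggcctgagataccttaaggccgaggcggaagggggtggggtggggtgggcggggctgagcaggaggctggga
Itga2b: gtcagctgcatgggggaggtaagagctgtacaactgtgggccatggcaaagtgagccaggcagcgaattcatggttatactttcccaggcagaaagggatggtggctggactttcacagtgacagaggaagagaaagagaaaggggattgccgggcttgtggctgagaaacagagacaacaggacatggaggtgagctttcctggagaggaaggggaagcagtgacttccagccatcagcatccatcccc
These windows are chr11:32283422-32283671 (plus strand), chrX:150547167-150547416 (plus strand) and chr11:102469884-102470133 (minus strand). A GATA word began at -183 in Hba-a1 and at -86 in Alas2, counted from the start, and Itga2b held none in this window. Of the 8 member genes in the table, with Hbb-bt standing for Hbb-b1, 3 held such a word (Hba-a1, Alas2 and Epb42). The share among all 32851 promoter windows was 26.5%, so the count is near the background and is not read as an excess. A match of this kind describes letters and not a bound site. The windows of Hba-a1 and Hba-a2, set 3 bases apart, were identical over all 247 bases compared.

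Levels are given as log2 of the processed signal relative to the 75th percentile of its array, so a level of 0 equals that percentile and a step of 1 is a doubling. Differences are adrenalectomized minus sham on the same scale with their standard error (SE), from limma with Benjamini-Hochberg adjusted p-values over 23990 probes. Slide 1 carried all 3 sham hearts and the first adrenalectomized replicate, slide 2 carried adrenalectomized replicates 2 and 3, and each slide was 1 scan batch. Between 57.7% and 66.8% of spots were well above background, the 75th percentile ran from 644 to 924 intensity units, and any pair of arrays correlated across probes at a Pearson r of 0.980 to 0.990, where probes are not independent replicates. The 12 cardiomyocyte markers, such as Myh6 and Myl2, were well above background on all 6 arrays, in keeping with the labelled tissue, and their median difference between groups was -0.14.

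In these hearts, the tested red cell and platelet probes varied more among the adrenalectomized mice than among the sham mice. The SD in sham and adrenalectomized hearts was 0.15 and 1.19 for Slc4a1, but 0.27 and 0.29 for Pf4. The difference in spread was not tested. Adrenalectomized replicates 1 and 2 had the highest levels of nearly every member, adrenalectomized replicate 3 had the lowest, and the 3 sham hearts lay between. None of the 12 tested probes passed the test, where 0.00417% of all probes did, and 2 of 12 had an unadjusted p under 0.05, where 13.5% of all probes did. The groups overlapped at all 12, whereas they did not overlap at 19.5% of all probes. The mean was higher after adrenalectomy at 11 of 12 probes, against 55.1% of all probes, and Pf4 was the exception.

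Adrenalectomized replicate 1 lay above all 3 sham hearts at 11 of 12 probes and adrenalectomized replicate 2 at 11 of 12, where 36.2% and 28.4% of all probes did so. Adrenalectomized replicate 3 lay below all 3 sham hearts at 10 of 12 probes, against 26.6% of all probes. It was the lowest of the 6 hearts at those 10, against 17.3% of all probes. These counts treat probes that share a gene or a cell as separate, so they describe the arrays and carry no test. Both of the first counts were 11 of 12 under quantile normalization, median centring, a percentile over detected probes and normexp background correction, and the third was 8 of 12 with quantile normalization and 7 of 12 with normexp.

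**Figure D1:**
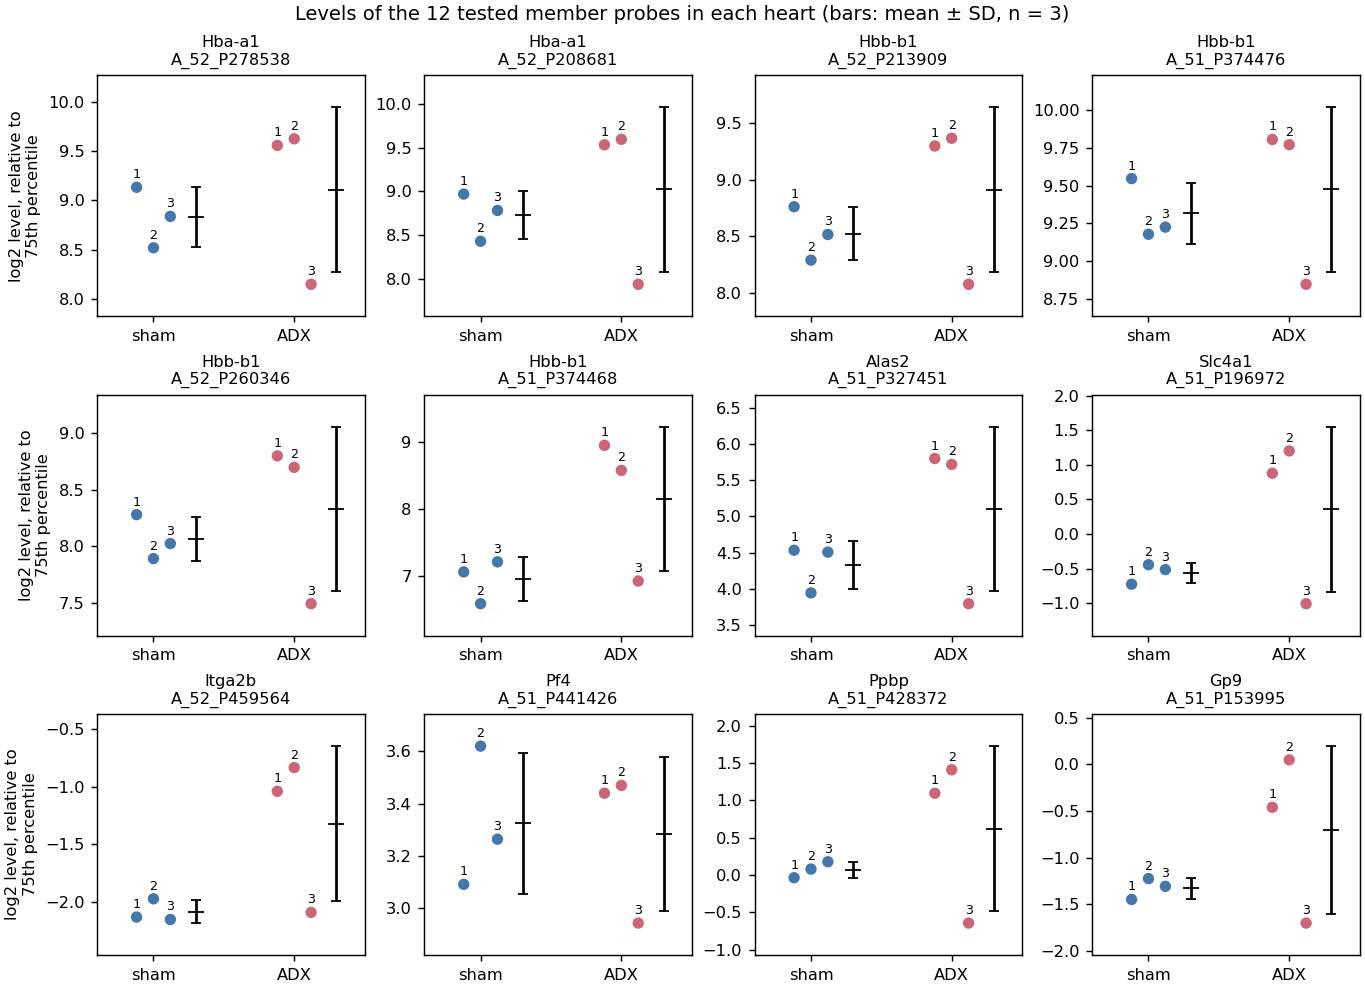
Log2 level of each of the 12 tested probes, relative to the 75th percentile of its array, in each heart (numbered points, blue for sham and red for adrenalectomized, ADX), with the group mean and SD beside them (n = 3). Adrenalectomized replicates 1 and 2 lie above all sham hearts at 11 probes, and adrenalectomized replicate 3 is the lowest heart at 10.

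Alpha globin was measured by both Hba-a1 probes. The level of A_52_P278538 was 9.13, 8.52 and 8.84 in the sham hearts and 9.56, 9.63 and 8.15 in the adrenalectomized hearts, a difference of 0.28 (SE 0.40, limma adjusted p = 0.793). The second probe, A_52_P208681, gave 8.97, 8.43 and 8.78 in sham hearts and 9.53, 9.60 and 7.94 after adrenalectomy, a difference of 0.30 (SE 0.44, limma adjusted p = 0.802). Both probes therefore ranked the 6 hearts alike, and the sham hearts fell inside the spread of the adrenalectomized ones. From lowest to highest heart, the signal of A_52_P278538 spanned 2.79-fold, both ends of which were adrenalectomized.

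Beta globin was likewise highest in adrenalectomized replicates 1 and 2. The level of the Hbb-b1 probe A_51_P374476 was 9.55, 9.18 and 9.22 in sham hearts and 9.81, 9.77 and 8.84 after adrenalectomy, a difference of 0.16 (SE 0.27, limma adjusted p = 0.830). Its spots were saturated in adrenalectomized replicates 1 and 2, so the levels there are bounds from below. The probe that overlaps it, A_52_P260346, gave 8.28, 7.89 and 8.02 against 8.80, 8.70 and 7.49, a difference of 0.26 (SE 0.34, limma adjusted p = 0.771). At A_52_P213909 the level was 8.76, 8.29 and 8.52 in sham hearts and 9.30, 9.37 and 8.08 in adrenalectomized hearts, a difference of 0.39 (SE 0.35, limma adjusted p = 0.653). In all 3 probes the same heart, adrenalectomized replicate 3, was lowest.

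The 5′ probe of Hbb-b1 had the largest of the globin differences. A_51_P374468 had levels of 7.06, 6.59 and 7.21 in sham hearts and 8.95, 8.57 and 6.93 in adrenalectomized hearts, a difference of 1.19 (SE 0.50, limma unadjusted p = 0.0464, adjusted p = 0.363). Adrenalectomized replicates 1 and 2 were 3.97-fold and 3.07-fold over the sham mean here. At A_51_P374476, saturated in both hearts, only lower bounds of 1.40-fold and 1.37-fold are known. Adrenalectomized replicate 3, at 0.981 of the sham mean, was not below all sham hearts at this probe.

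Globin signals reached the top of the scanner range. The probe with saturated spots gave the smallest folds in adrenalectomized replicates 1 and 2, as lower bounds, and the probe farthest below the saturation value in sham hearts gave the largest, but the 4 probes between them did not fall in that order. In adrenalectomized replicate 2 the processed signal reached 111.3% of the saturation value at A_51_P374476, 100.7% at A_52_P278538 and 98.6% at A_52_P208681. At the 5′ probe A_51_P374468, by contrast, signals ran from 9.49% to 57.9% of the saturation value over the 6 hearts. Only A_51_P374476 carried the saturation flag, on 2 arrays. The part of saturation in the smaller folds was not tested. The 6 adult globin probes together held 1.54%, 1.09% and 1.46% of the summed probe signal in sham hearts and 2.34%, 2.43% and 0.987% in adrenalectomized hearts.

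**Figure D2:**
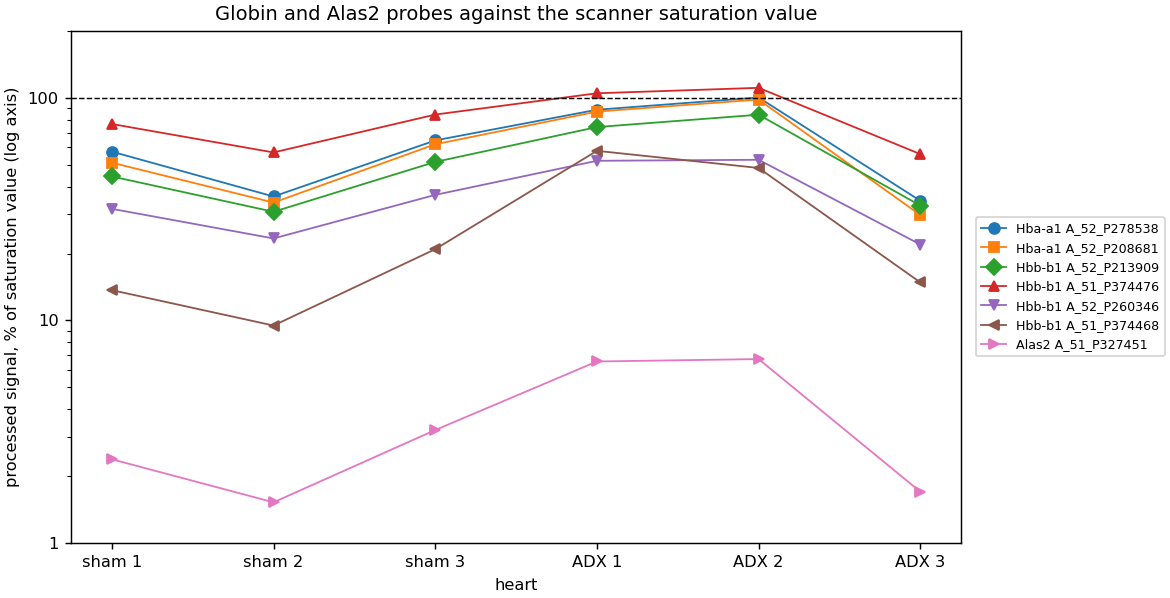
Processed signal of the 6 adult globin probes and of Alas2 in each heart, as a percentage of the saturation value of the array (log axis; dashed line, 100%). Adrenalectomized (ADX) replicates 1 and 2 are highest at each of these probes, and A_51_P374476 passes the line in both, with A_52_P278538 at 100.7% in replicate 2.

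Alas2 and Slc4a1, far from saturation, also had adrenalectomized replicates 1 and 2 as the 2 highest hearts and replicate 3 as the lowest, although the order among the sham hearts differed between them. Alas2 makes the erythroid form of the first, rate-limiting enzyme of haem synthesis, and its probe A_51_P327451 lies at chrX:145329125-145329184 (mm7, plus strand). Its level was 4.54, 3.95 and 4.51 in sham hearts and 5.80, 5.72 and 3.80 in adrenalectomized hearts, a difference of 0.77 (SE 0.52, limma adjusted p = 0.551). Against the sham mean, the 3 adrenalectomized hearts were at 2.76, 2.61 and 0.692. Slc4a1 encodes band 3, the anion exchanger of the red cell membrane, with its probe A_51_P196972 at chr11:102457981-102458040 (mm7, minus strand). Its level was -0.73, -0.44 and -0.51 in sham hearts and 0.88, 1.20 and -1.01 in adrenalectomized hearts, a difference of 0.92 (SE 0.53, limma adjusted p = 0.490). The sham hearts lay within an SD of 0.15 of their Slc4a1 mean, whereas the SD of the adrenalectomized hearts was 1.19.

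Epb4.2 encodes protein 4.2, which ties band 3 to the membrane skeleton, and was barely measured. Neither of its probes was well above background in any sham heart. A_52_P73126, at chr2:120759553-120759612 (mm7, minus strand), was well above background in adrenalectomized replicates 2 and 3 alone. The adrenalectomized mean was 1.09-fold over the sham bound. That mean includes the undetected level of replicate 1, so the fold is not a lower limit. The measured means were -4.30 after adrenalectomy and -6.26 in sham hearts. By heart, the levels were -6.10, -6.30 and -6.39 in sham hearts and -4.75, -4.37 and -3.78 after adrenalectomy. Adrenalectomized replicate 3 was thus the highest heart here, unlike at the tested probes. A_52_P73126 passed the filter only without adrenalectomized replicate 1, through the adrenalectomized hearts alone. It was called there, as 0.224% of all probes were, but against undetected sham signals, so the call carries no support. A_51_P122535, at chr2:120759820-120759879, was well above background in 0 of 6 hearts. Epb4.2 adds no usable measurement of the red cell pattern.

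Among the platelet genes, Gp9 and Ppbp had adrenalectomized replicates 1 and 2 highest and replicate 3 lowest, and Itga2b and Pf4 each departed from this in part. Itga2b encodes the alpha chain of the fibrinogen receptor of platelets, and its probe A_52_P459564 covers parts of chr11:102567178-102567386 (mm7, minus strand). Its level was -2.13, -1.97 and -2.15 in sham hearts and -1.04, -0.84 and -2.09 in adrenalectomized hearts, a difference of 0.76 (SE 0.31, limma unadjusted p = 0.0429, adjusted p = 0.352). Adrenalectomized replicate 3 lay among the sham hearts rather than below them.

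Gp9 is a subunit of the von Willebrand factor receptor, with its probe A_51_P153995 at chr6:87854749-87854808 (mm7, plus strand). Its level was -1.45, -1.23 and -1.31 in sham hearts and -0.46, 0.05 and -1.70 after adrenalectomy, a difference of 0.62 (SE 0.41, limma adjusted p = 0.538). Ppbp encodes the platelet basic protein, a chemokine stored in alpha granules, with its probe A_51_P428372 at chr5:90741218-90741277 (mm7, plus strand). Its level was -0.04, 0.08 and 0.18 in sham hearts and 1.10, 1.41 and -0.65 after adrenalectomy, a difference of 0.55 (SE 0.49, limma adjusted p = 0.660). For both genes the sham hearts agreed within an SD of 0.11, and the 3 adrenalectomized hearts lay on both sides of them.

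Pf4, platelet factor 4, another alpha-granule chemokine, departed from the other platelet genes. Its probe A_51_P441426 lies near that of Ppbp, at chr5:90744523-90744582 (mm7, plus strand), and gave levels of 3.09, 3.62 and 3.26 in sham hearts and 3.44, 3.47 and 2.94 in adrenalectomized hearts. The difference was -0.04 (SE 0.20, limma adjusted p = 0.949), and sham replicate 2 was the highest heart. Pf4 spanned 1.60-fold from lowest to highest heart, against 4.16-fold for Ppbp. In every heart its level was above those of Ppbp, Gp9 and Itga2b. Whether cells other than platelets gave part of the Pf4 signal was not tested. The sign of the Pf4 difference is not settled, since it was positive at 0.11 with the slide as a block. The lowest heart was still adrenalectomized replicate 3.

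**Figure D3:**
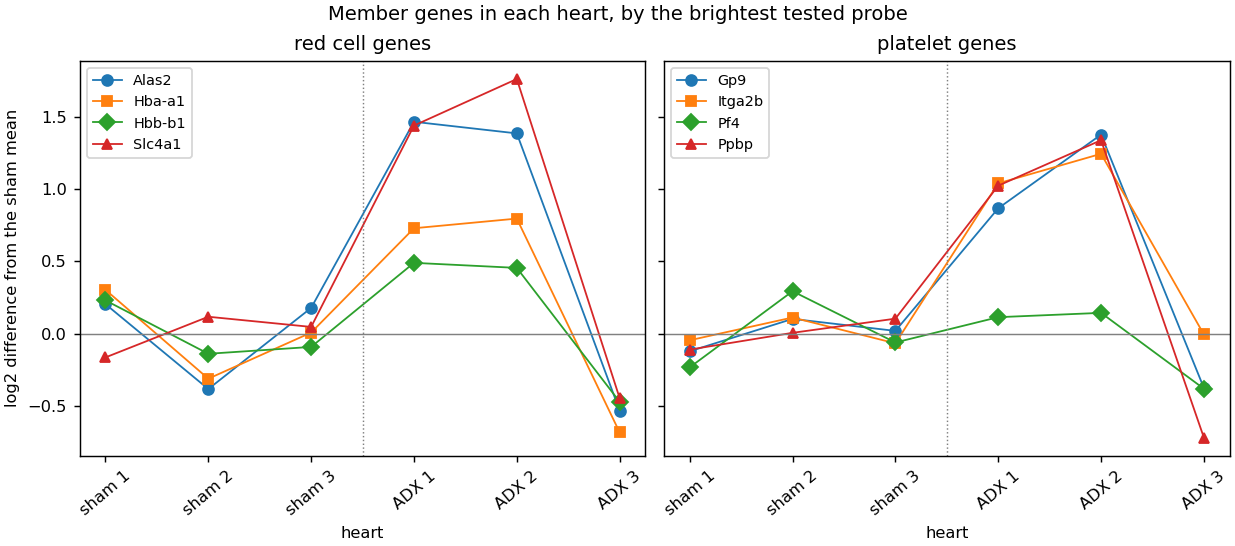
Log2 difference of each member gene from its sham mean in each heart, by its tested probe of highest mean, with red cell genes on the left and platelet genes on the right (ADX, adrenalectomized). All genes but Pf4 lie more than 0.4 above the sham mean in adrenalectomized replicates 1 and 2, and none lies above it in replicate 3.

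Over the 8 measured genes, the median deviation from the sham mean was -0.08, 0.05 and 0.01 in the sham hearts and 0.95, 1.29 and -0.46 in the adrenalectomized hearts. The red cell genes alone gave 1.08, 1.09 and -0.50 in the 3 adrenalectomized hearts with the saturated A_51_P374476 standing for Hbb-b1, and 1.45, 1.50 and -0.49 with A_51_P374468 in its place. The platelet genes gave 0.95, 1.29 and -0.38. The red cell and platelet genes thus placed each adrenalectomized heart on the same side of the sham mean. The medians of the sham hearts were 0.22, -0.23 and 0.03 in the red cell genes and -0.12, 0.11 and -0.02 in the platelet genes, opposite in sign in each heart. Sham replicate 2 was the lowest sham heart in Alas2 and at every Hba-a1 and Hbb-b1 probe. It was the highest in Slc4a1, Itga2b, Gp9 and Pf4 and the middle one in Ppbp. The order of the sham hearts thus differed between most red cell genes and the platelet genes, with Slc4a1 ordered as Gp9 and Pf4 were.

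The difference between the groups turned on adrenalectomized replicate 3. The median difference of the 8 genes was 0.59, against 0.03 for all 16949 genes, and it was 1.13 without that heart. Omission of it left differences of 0.76 for Hba-a1 at A_52_P278538, 0.47, 0.68, 0.81 and 1.80 for the 4 probes of Hbb-b1, 1.43 for Alas2, 1.60 for Slc4a1, 1.14 for Itga2b, 0.13 for Pf4, 1.18 for Ppbp and 1.12 for Gp9. None passed then either, with limma adjusted p-values from 0.103 to 0.772 over the 12 probes, where 0.0164% of all probes did. Without adrenalectomized replicate 2 the median of the members was 0.20, and without replicate 1 it was 0.37.

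With the slide as a block the values also moved, because slide 2 held no sham array and the blocked difference is that of adrenalectomized replicate 1 from the sham mean. The median of the members was 0.95 with the block, against 0.05 for all genes, with differences of 1.47 for Alas2, 1.44 for Slc4a1, 1.04 for Itga2b and 1.02 for Ppbp, and no probe of the members passed, where 0.0125% of all probes did. By the median deviation of the members from the sham mean, adrenalectomized replicate 2 was the highest heart (1.29) and replicate 3 the lowest (-0.46). Both lay on slide 2. By probe, replicate 2 was the highest heart at 7 of 12 and replicate 1, on the other slide, at 4. Without a sham array on slide 2, the part of the slide in the spread of the members was not tested.

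**Figure D4:**
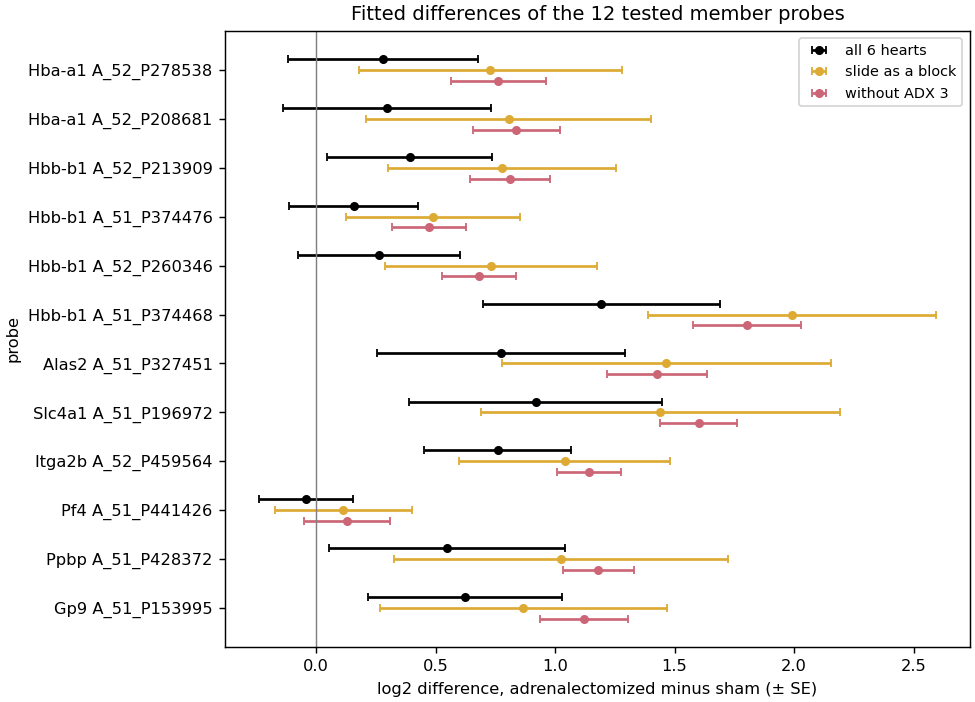
Log2 difference, adrenalectomized minus sham, with its SE (bars), for the 12 tested probes in all 6 hearts (black), with the slide as a block (yellow) and without adrenalectomized (ADX) replicate 3 (red). Every probe but Pf4 lies above 0 in all 3 fits, and none passed the adjusted threshold of 0.05.

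Other genes of the same cells were then described, by lists chosen with earlier results of these data known. None of their members passed the limma test over all probes, and 0.00590% of all genes, each by its brightest probe, did. Of 13 tested genes for red cell enzymes and maturation, 11 had a higher mean after adrenalectomy, against 56.6% of all genes, with a median of 0.46. At an unadjusted p under 0.05 the fit held 0 of the 13, against 11.9% of all genes. Adrenalectomized replicate 1 lay above all sham hearts for 10 of the 13 and replicate 2 for 10, and replicate 3 lay below them for 10. The corresponding shares of all genes were 35.7%, 28.8% and 24.5%. Trim10, an erythroid maturation gene, differed by 0.89 (SE 0.56, limma adjusted p = 0.529), and Xpo7, a nuclear export receptor used in red cell maturation, by -0.19 (SE 0.11, limma adjusted p = 0.505).

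Haem synthesis as a whole was less marked than Alas2. Of its 10 genes 7 had a higher mean, with a median of 0.15. Adrenalectomized replicates 1 and 2 lay above all sham hearts for 7 and 5 of them, and replicate 3 below for 4. The shares of all genes were 35.7%, 28.8% and 24.5%. Fech, which inserts iron into haem, differed by 0.28 (SE 0.12, limma adjusted p = 0.371), and Uros, an earlier step, by 0.38 (SE 0.17, limma adjusted p = 0.391). Slc25a37, the mitochondrial iron importer of red cell precursors, named here after its values were seen, followed the members at 2.32, 2.06 and 2.31 in sham hearts and 3.28, 3.44 and 2.04 in adrenalectomized hearts. The other steps of the pathway are used by every cell type.

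For the red cell membrane and skeleton the list median was -0.02 over 13 genes, 6 of them higher. Adrenalectomized replicates 1 and 2 lay above all sham hearts for 3 and 4 of the 13, against 35.7% and 28.8% of all genes. Replicate 3 lay below them for 8, against 24.5%. Tspan33, a membrane protein of red cell precursors, differed by 0.25 (SE 0.13, limma adjusted p = 0.459). Hbb-y, an embryonic beta-like globin and the only other globin tested, had levels of -2.16, -2.45 and -2.26 in sham hearts and -0.80, -0.52 and -2.86 after adrenalectomy, a difference of 0.89 (SE 0.57, limma adjusted p = 0.529). Rhag, Kel, Ahsp, Hba-x and Hbb-bh1 were too dim to be tested.

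Among regulators of the red cell and megakaryocyte lineages, Gata1 and Klf1, the defining erythroid transcription factors, were well above background in at most 2 hearts and in none, and were not tested. Of 10 tested regulators 6 had a higher mean, with a median of 0.09. Adrenalectomized replicates 1 and 2 lay above all sham hearts for 5 and 5 of the 10, against 35.7% and 28.8% of all genes. Replicate 3 lay below them for 2, against 24.5%. Gata2, a factor of early precursors, differed by -0.29 (SE 0.12, limma adjusted p = 0.372).

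Platelet receptors and integrins had a median of 0.21 over 12 genes, 10 of them higher. Adrenalectomized replicates 1 and 2 lay above all sham hearts for 8 and 9 of the 12, and replicate 3 below them for 8. Itgb3, the partner chain of Itga2b, differed by 0.37 (SE 0.23, limma adjusted p = 0.527), and Tbxa2r, the thromboxane receptor, by 0.23 (SE 0.13, limma adjusted p = 0.479). Platelet granule, cytoskeleton and signalling genes had a median of 0.03 over 17 genes, 9 of them higher. Here replicates 1 and 2 lay above all sham hearts for 8 and 8 of the 17, and replicate 3 below for 9. The shares of all genes were 35.7%, 28.8% and 24.5%. In that list Nbeal2, needed for alpha granules, differed by 0.44 (SE 0.10, limma adjusted p = 0.183), and Vwf, made by endothelium as well as megakaryocytes, by -0.64 (SE 0.17, limma adjusted p = 0.208). Several of these genes, such as Vwf, Srgn and Gng11, are also expressed by other cells of the heart.

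Markers of white cells were described in the same way, with no test of their difference from the members. Neutrophil markers had a median difference of -0.02 over 7 tested of 18 genes, with a summed level, in multiples of the 75th percentile, of 1.31 to 2.11 in sham and 1.34 to 1.64 in adrenalectomized hearts. Elane, Retnlg and Csf3r, which mark neutrophils, were above background in no heart. Within this list Chi3l3, which monocytes share, differed by -0.57 and Ctsg by 0.22. Monocyte markers had a median of 0.01 over 11 genes, with Nr4a1 at -1.73 and Treml4 at 0.56. Adrenalectomized replicates 1 and 2 lay above all sham hearts for 3 and 4 of the 11, against 35.7% and 28.8% of all genes. Replicate 3 lay below them for 6, against 24.5%. F10, named after its values were seen, had adrenalectomized replicates 1 and 2 highest and replicate 3 lowest, as most members did. Its levels were low, at -3.62, -3.24 and -3.26 in sham hearts and -1.998, -2.88 and -4.24 in adrenalectomized hearts. The summed level of the list was 23.1 to 55.5 in sham and 19.9 to 22.4 in adrenalectomized hearts, but Nr4a1, an immediate early gene, made up 42.0 of the 55.5. Without Nr4a1 the sums were 13.6 to 15.3 and 13.3 to 17.8.

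Lymphocyte markers were highest in adrenalectomized replicate 2. The list medians in the adrenalectomized hearts were 0.17, 0.88 and 0.24. Of 13 tested genes 11 had a higher mean, against 56.6% of all genes, with a median of 0.38. Their summed level was 5.34 to 8.06 in sham and 6.52 to 13.8 in adrenalectomized hearts. Dntt differed by 0.86 and Cd3g by 0.33 (limma adjusted p = 0.316 and 0.327). Adrenalectomized replicates 1 and 2 lay above all sham hearts for 3 and 11 of these 13 genes, against 35.7% and 28.8% of all genes. Replicate 3 was below all sham hearts for 0 of the 13, against 24.5% of all genes, unlike the members.

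Adipocyte markers had list medians of -1.09, 0.68 and 0.15 in sham hearts and 0.20, 2.13 and 1.81 in adrenalectomized hearts, so they were high in both hearts of slide 2, one high and one low in the members. Of 12 tested genes 11 had a higher mean after adrenalectomy, against 56.6% of all genes. Summed levels were 389 to 547 in sham and 467 to 833 in adrenalectomized hearts. Ucp1 differed by 2.88 (SE 0.82, limma adjusted p = 0.229). Elovl3, well above background in no sham heart, passed the filter through the adrenalectomized hearts alone. Its mean there was at least 14.4-fold over the sham bound of -4.41. The level was -3.16 in adrenalectomized replicate 1, and 0.83 and 0.65 in replicates 2 and 3, both on slide 2. Its fitted difference (limma adjusted p = 0.160) rests on undetected sham signals and carries no support. Endothelial markers had a median of -0.17 over 10 genes, with Tek at -0.26. The 12 cardiomyocyte markers had one of -0.14, with Tnni3 at -0.29 and Myl3 at -0.19. Replicate 3 lay below all sham hearts for 9 of the 12 cardiomyocyte and 4 of the 10 endothelial markers, against 24.5% of all genes. Replicates 1 and 2 lay above them for 5 and 0 of the cardiomyocyte and 2 and 0 of the endothelial markers. The shares of all genes were 35.7% and 28.8%. The part of adipose and other tissue in the spread of the members was not tested.

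Genes of iron handling and hypoxia, which could be read beside blood content, had a median of 0.04 over 19 genes, 11 of them higher. Hamp and Hamp2, which encode the iron hormone hepcidin and a close copy, differed by -0.83 and -0.72 (limma adjusted p = 0.146 and 0.169). Their near-identity makes the split between them uncertain.

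**Figure D5:**
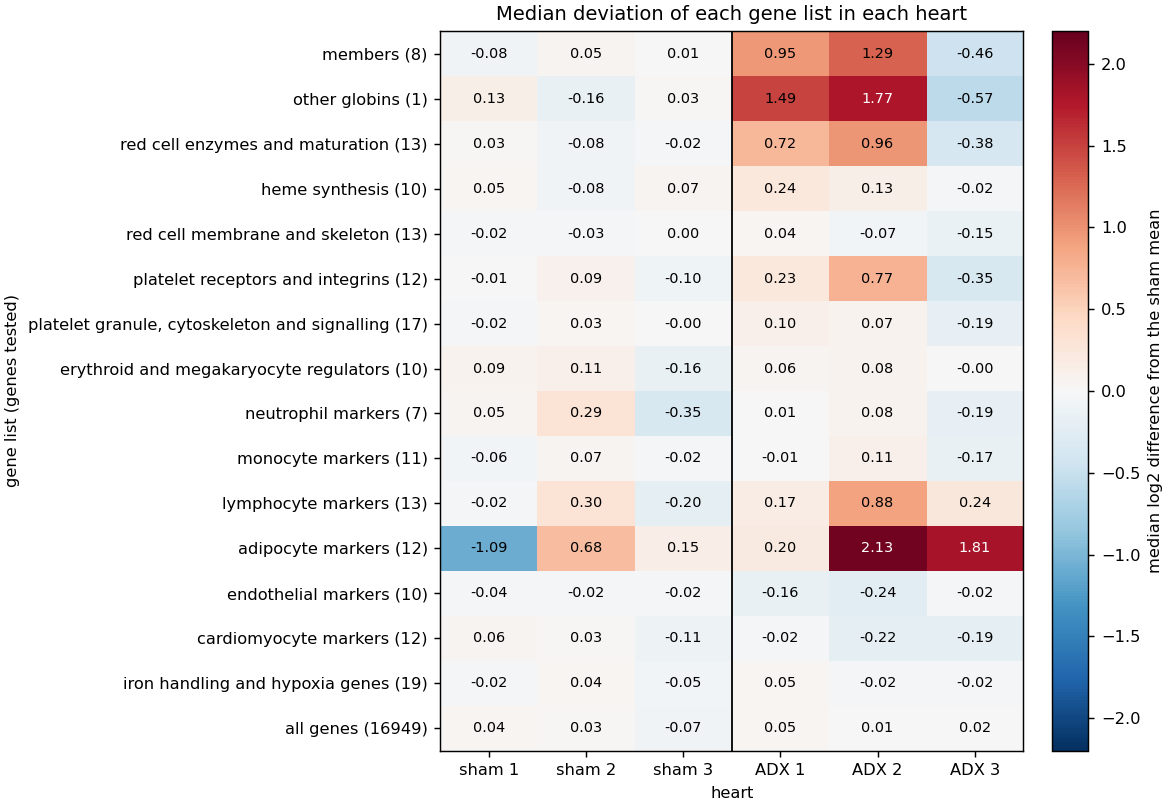
Median log2 difference from the sham mean of the genes in each list (number tested in parentheses), in each heart, with red above and blue below 0 (ADX, adrenalectomized). The members, Hbb-y and the red cell enzymes are high in adrenalectomized replicates 1 and 2 and low in replicate 3, whereas adipocyte markers are high in replicates 2 and 3.

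The genes whose levels were most like the members over the 6 hearts were found among 15674 genes above background in every heart. Among the nearest to the mean of the 4 red cell genes were Hif3a (Pearson r = 0.998), Bpgm (0.994), Epb4.1 (0.994) and the transcript Av381130 (0.993), each with a Spearman rho of 1. Nearest to the mean of the 4 platelet genes were Treml1 (0.993), Nrgn (0.990), Acta1 (0.990), 1700024C24Rik (0.984) and Npl (0.983), with rho of 0.94 or 1. These values have no p, since the best of many genes over 6 hearts is chosen for its likeness. They were 0.937 or more without adrenalectomized replicates 1 and 2, the 2 hearts farthest from the median. The remaining hearts also took part in the choice of the genes, so this is not a separate check. Bpgm, the enzyme that makes 2,3-bisphosphoglycerate, is abundant in red cells, and Treml1 and Nrgn are abundant in platelets. Hif3a, a hypoxia-regulated transcription factor, and Acta1, skeletal alpha-actin, are not blood cell markers, and each spanned less than a doubling, 0.72 and 0.95 on the log2 scale.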

How the data were processed

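Heart RNA was isolated on silica columns, 50 ng was amplified by whole-transcriptome amplification and cDNA was coupled to Cy3, per the labels' protocols. Per the file headers, Feature Extraction 9.5.3.1 made the signals, which the submitters' processing notes give as version 9.5. The processed signal that the authors deposited is a linear intensity from which background was subtracted and spatial trends were removed, per the file headers, and arrays were not normalized to one another. Low signals carry a surrogate value in the deposited files. The deposited value table repeated this intensity at each of 45018 spots, and is therefore linear and not centred, with column medians of 70.8, 68.1, 84.4, 75.1, 92.2 and 80.9 (sham, then adrenalectomized). The direction of differences is that of the labelled groups, as the arrays have 1 colour.

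Each log2 signal was set against the 75th percentile of its array, control and outlier-flagged spots (80 to 133 an array) were left out, and repeat spots were averaged. Of 41174 probes, 22951 were named through a RefSeq accession and the others kept the scanner name. A probe was tested when every array of 1 group or of both showed it well above background, and a gene in a list was represented by its tested probe of highest mean. Groups came from the labels. Differences were fitted over all tested probes in R 4.3.3 with limma 3.58.1 (lmFit, eBayes), adjusted by Benjamini-Hochberg and called at 0.05. The fit was tested on simulated data. Probe coordinates are 1-based and from the mm7 array design, and no annotation of that build (exons, UTRs) was used. Python 3.11.15, pandas 2.3.3 and matplotlib 3.10.9 read the sequences and drew the figures.

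The members and lists were chosen with earlier results of these data known. Named genes are all 9 members, for every other list the genes that passed or else the 2 of smallest p, and the 5 genes most like the red cell and the platelet members. A few genes that this rule picks are not reported here. Other genes named as examples were chosen after their values were seen. A fold for a probe not above background in 1 group is a bound: the dim group is set, in each array, to its lowest detected signal or the signal of the dim probe, whichever is higher. It is no bound where the brighter group also held an undetected array, as for Epb4.2. The number of arrays limits the precision. Alternatives were other scalings, normexp background correction (offset 50), other filters, outlier spots kept, the slide or the replicate number as a block, slide 1 alone, array weights, a robust variance trend, the value table, 1 probe per gene, and each array left out.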

Additional observations from a re-analysis of the deposited data

How the results depend on the processing

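Of 248 differences of member probes under alternatives, 239 kept their direction and side of the threshold, 1 newly passed and 8 changed sign. Several alternatives returned the main differences of the members unchanged, and so could alter at most their p-values. These were the filters, the value table, outlier spots kept, 1 probe per gene, the variance trend and the replicate block. The slide as a fixed block and slide 1 alone gave the same differences. The 239 is therefore not a measure of robustness. Hbb-b1 at A_51_P374468 passed with normexp background correction (1.60, limma adjusted p = 0.0252), 1 of 12 member probes where normexp called 40.4% of all probes. Pf4 turned to 0.28 with normexp, 0.11 with the slide as a fixed block and in slide 1 alone, 0.18 with array weights, 0.11 without sham replicate 2 and 0.13 without adrenalectomized replicate 3, with a range of -0.16 to 0.13 over the arrays left out. Itga2b turned to -0.055 with normexp, and Hbb-b1 at A_51_P374476 to -0.0080 without adrenalectomized replicate 1 (range with an array left out, -0.0080 to 0.47). Without that replicate Epb4.2 passed the filter through the adrenalectomized hearts alone and was the 1 member called, against undetected sham signals, so the count of member calls ran from 0 to 1 with an array left out. The median of the members was positive in all 21 alternatives, those that returned the main differences included. It ran from 0.20 without adrenalectomized replicate 2 to 1.13 without replicate 3. Normexp shifted the median of all probes from 0.03 to -0.18.

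The count of all probes called, 1 in all 6 arrays, was 4 with quantile normalization, 5 with median centring, 9700 with normexp (1597 higher, 8103 lower), 0 with probes above background on all 6 arrays, 3 with the slide as a fixed block, 52 in slide 1 alone, 15 with a variance trend, 1234 with array weights, 7 with 1 probe per gene, and 1 to 56 with an array left out (56 without adrenalectomized replicate 1). The cause was not tested. With the replicate number as a block it was 0, and 0 member probes were called. Same-numbered samples correlated at 0.14, 0.14 and -0.20 in their deviations, so the numbers were not taken to pair them.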
